A study of Mus musculus with 24 samples.

Results

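Ductal cells (DCs) of the mouse liver grown as organoids in expansion medium (EM) were compared with DCs taken fresh from the liver. The comparison holds 4 of the 24 samples of the series, chosen by their labels, which are 2 samples of EM organoids at day 15 and 2 samples of freshly sorted DCs at day 0. All came from wild type C57BL/6 mice, adult and 8 to 12 weeks old, and the DCs were sorted as EpCAM+ CD45- CD11b- CD31- cells. For the organoids, sorted DCs were embedded in Matrigel on a transwell insert, with no stromal cells in the well. EM is a basal medium with N-acetylcysteine to which EGF, FGF10, HGF, gastrin, nicotinamide and medium conditioned with R-spondin 1 are added. WNT3A-conditioned medium, Noggin and a ROCK inhibitor were present only for the first 3 days after isolation, and plain EM followed. The DCs for culture came from 2 littermates and the methods do not tie animals to samples. The p-values therefore measure a spread between samples, which the main fit estimates over all 12 samples of the transwell experiment. The sex of the animals is not in the labels of these 4 samples, and none of 5 sex-linked genes was called between the groups. The other samples of the transwell experiment were organoids co-cultured with SCA1+ mesenchymal cells (SCA1+Msc) and the SCA1+Msc themselves, and those of a second experiment, on healthy liver, include DCs of 3 further mice at 12 weeks that are heterozygous for a *Pdgfra* EGFP reporter.

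DCs, or cholangiocytes, line the bile ducts, where they modify the bile through transporters, channels and a primary cilium, and in the healthy liver very few of them divide. After injury they can proliferate, and their growth as organoids depends on Wnt signals that R-spondins strengthen by binding LGR4, LGR5 and LGR6 and taking the ligases RNF43 and ZNRF3 off the cell surface. Organoids in EM are cystic single-layer epithelia that can be passaged for long periods, which makes them a model of ductal proliferation outside the animal.

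Between 18727920 and 26050950 reads stood behind each of the 4 samples, as read back from the deposited values. Gene levels are given as TPM, a length-normalized share in which every sample sums to 1000000, and differences as the mean of the organoids minus the mean of the DCs on the log2(TPM + 1) scale ± standard error, both with n = 2 samples a side. A gene was called where the Benjamini-Hochberg adjusted p of limma, a linear model with moderated variances, was under 0.05. Of 18136 genes tested, 44.4% were called, with 4917 higher (27.1% of those tested) and 3128 lower (17.2%) in EM organoids. An exact permutation test of 2 against 2 samples cannot give a p under 0.333, so that each call rests on the variance model. Another scaling moved the balance of the calls, since 61.1% of them were higher with TPM, 52.2% after quantile normalization and 45.7% after upper-quartile scaling, and the median difference over all genes was 0.12, 0.00 and -0.03, respectively. The medians of some lists moved further between TPM and upper-quartile scaling, that of oxidative phosphorylation genes from 1.02 to 0.61 and that of cytosolic ribosomal proteins from 1.13 to 0.71. As to the DC label, the lowest level among the 4 samples was 2081 TPM for *Epcam* and 1580.3 TPM for *Krt19*, and the marker levels of other cell types are given with the results they move with.

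**Figure D1:**
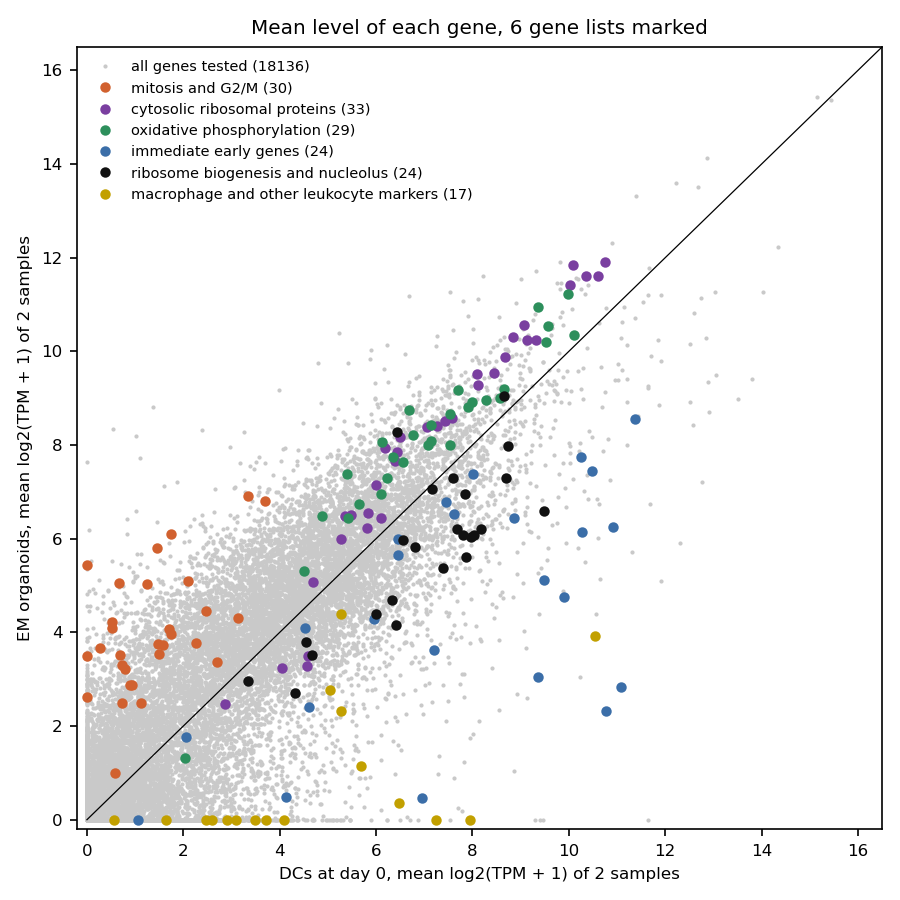
Mean log2(TPM + 1) of each of 18136 genes in 2 samples of DCs at day 0 (horizontal axis) and in 2 samples of EM organoids (vertical axis), with the line of equal level and 6 gene lists in colour. Nearly all marked mitosis, ribosomal protein and oxidative phosphorylation genes lie above the line, and nearly all immediate early, ribosome biogenesis and leukocyte genes lie below it.

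*Lgr5*, a receptor for R-spondins and a Wnt target that marks stem and progenitor cells (chromosome 10, 115450311 to 115587780 of GRCm38), was at 0.306 and 0.249 TPM in DCs and 12.8 and 26.4 TPM in EM organoids. Both organoid samples lay above both DC samples, with a log2 difference of 3.93 ± 0.53 and an adjusted p of 0.000256 by limma, and the values correspond to about 27 and 16 reads in DCs and 934 and 1731 in EM organoids. *Mki67*, which encodes the Ki-67 antigen of cycling cells (chromosome 7, 135689784 to 135716361), was at 2.17 and 1.64 TPM in DCs and 13.1 and 12.6 TPM in EM organoids. The groups did not overlap here either, and the log2 difference was 2.26 ± 0.32 (limma adjusted p = 0.000322). Organoid samples differed from each other about as little as the DC samples for *Mki67*, but for *Lgr5* the second organoid sample stood well above the first.

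The genes of mitosis rose as a group. Of 30 genes that act from G2 to cytokinesis 27 were higher in EM organoids (27.1% of all genes were), none was lower and 3 did not pass, with a median log2 difference of 2.49. *Plk1*, a kinase that drives entry into and passage through mitosis, was listed at 0 in both DC samples and stood at 40.2 and 45.3 TPM in EM organoids (limma adjusted p = 2.59e-05). *Cdk1*, the kinase of the G2/M switch, was at 2.597 and 2.13 TPM in DCs and 70.9 and 64.6 TPM in EM organoids. Its cyclins moved with it, *Ccna2* from 0.797 and 0.391 to 40.8 and 25.1 TPM, *Ccnb1* from 0.248 and 0.152 to 12.2 and 11.1 TPM and *Ccnb2* from 6.53 and 12.6 to 144 and 99.8 TPM. *Cdc20*, an activator of the anaphase-promoting complex, was at 10.4 and 13.8 TPM in DCs and 112 and 109.8 TPM in EM organoids, and *Ube2c*, the ubiquitin-conjugating enzyme of that complex, was at 2.23 and 1.29 TPM in DCs and 62.6 and 48.4 TPM in EM organoids. The log2 differences of *Cdk1*, *Ccna2*, *Cdc20* and *Ube2c* were 4.35 ± 0.32, 4.38 ± 0.27, 3.11 ± 0.20 and 4.37 ± 0.35. No value of these genes in an organoid sample was as low as any value in a DC sample. The spindle kinases *Aurka* (1.93 and 0.947 against 32.8 and 30.6 TPM) and *Aurkb* (1.06 and 0 against 17.4 and 14.9 TPM) and the topoisomerase *Top2a* (5.87 and 1.67 against 35.7 and 31.1 TPM) behaved alike. *Foxm1*, a transcription factor of G2/M genes, was at 1.76 and 0 TPM in DCs and 9.43 and 8.24 TPM in EM organoids, and its adjusted p by limma was 0.00565. The members that did not pass were *Kif23* (7.81 and 7.69 against 20.4 and 17.3 TPM), *Prc1* (6.54 and 4.62 against 11.8 and 7.35 TPM) and *Mybl2* (1.25 and 0 against 1.39 and 0.642 TPM).

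The promoters of these genes are known to share a pair of short elements, the cell cycle homology region (CHR, TTTGAA) and the CCAAT box, to which regulators of G2/M transcription bind. RefSeq windows from 250 bases before to 50 bases after a start site (GRCm38.p6) were found for 24 of the 30 genes, and 17 of them (70.8%) held TTTGAA and 18 (75.0%) held CCAAT on either strand, against 20.2% and 41.1% of 27018 genes with a window. The 3 genes with the largest called rise whose window holds both are shown to make the elements visible, with TTTGAA and CCAAT, or their reverse complements, in capitals. The windows are those of *Plk1* (chr7:122159185-122159484, plus strand), *Ube2c* (chr2:164769679-164769978, plus strand) and *Cdk1* (chr10:69352863-69353162, minus strand).
Plk1: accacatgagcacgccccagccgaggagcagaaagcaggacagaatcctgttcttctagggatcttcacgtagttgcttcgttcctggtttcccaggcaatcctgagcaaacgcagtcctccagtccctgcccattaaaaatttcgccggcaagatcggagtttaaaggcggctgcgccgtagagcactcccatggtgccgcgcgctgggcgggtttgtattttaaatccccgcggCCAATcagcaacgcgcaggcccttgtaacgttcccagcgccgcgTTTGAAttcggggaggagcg
Ube2c: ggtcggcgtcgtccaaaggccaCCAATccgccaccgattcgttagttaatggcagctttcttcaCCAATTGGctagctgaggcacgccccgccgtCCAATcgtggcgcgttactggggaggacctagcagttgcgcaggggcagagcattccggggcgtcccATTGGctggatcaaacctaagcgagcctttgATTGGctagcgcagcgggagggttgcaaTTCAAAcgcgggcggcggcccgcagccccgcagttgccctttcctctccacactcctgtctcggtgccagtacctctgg
Cdk1: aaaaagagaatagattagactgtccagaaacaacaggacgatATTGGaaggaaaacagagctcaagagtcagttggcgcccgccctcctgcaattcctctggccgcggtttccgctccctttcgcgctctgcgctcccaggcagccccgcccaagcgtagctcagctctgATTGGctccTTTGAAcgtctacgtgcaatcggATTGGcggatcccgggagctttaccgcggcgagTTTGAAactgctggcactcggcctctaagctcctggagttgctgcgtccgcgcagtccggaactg
A match of letters is a description of the window and was not tested for binding.

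Genes of DNA replication and the G1/S transition rose less uniformly. Of 32 genes 18 were higher (27.1% of all genes were), none was lower and 14 did not pass. Their median log2 difference was 1.19, and upper-quartile scaling left 14 higher and put 3 below the DCs. *Ccne1*, the cyclin that starts S phase, was at 0.96 and 0.901 TPM in DCs and 19.9 and 15.7 TPM in EM organoids, *Rrm2*, a subunit of ribonucleotide reductase, at 1.55 and 0.634 TPM in DCs and 19.9 and 20.9 TPM in EM organoids, and *Rfc5*, a subunit of the clamp loader, at 2.89 and 4.76 TPM in DCs and 42.4 and 28.2 TPM in EM organoids. The helicase subunits did not move together. *Mcm2* rose from 6.62 and 6.23 to 39.96 and 29.3 TPM, whereas *Mcm6* (69.3 and 89.8 against 63.2 and 69.1 TPM) and *Mcm7* (62.7 and 66.3 against 64.1 and 49.9 TPM) did not pass. *Pcna*, the sliding clamp of the polymerase, was at 89.1 and 86.4 TPM in DCs and 67.8 and 60.8 TPM in EM organoids (limma adjusted p = 0.0522). These members were already well expressed in fresh DCs, unlike *Ccne1* and *Rrm2*. Among the D-type cyclins, *Ccnd2* rose (1.96 ± 0.15, adjusted p = 6.94e-06 by limma) from 51.4 and 63.1 to 232 and 217 TPM, while *Ccnd1*, the most abundant, was at 228 and 222 TPM in DCs and 216 and 194 TPM in EM organoids and did not pass.

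**Figure D2:**
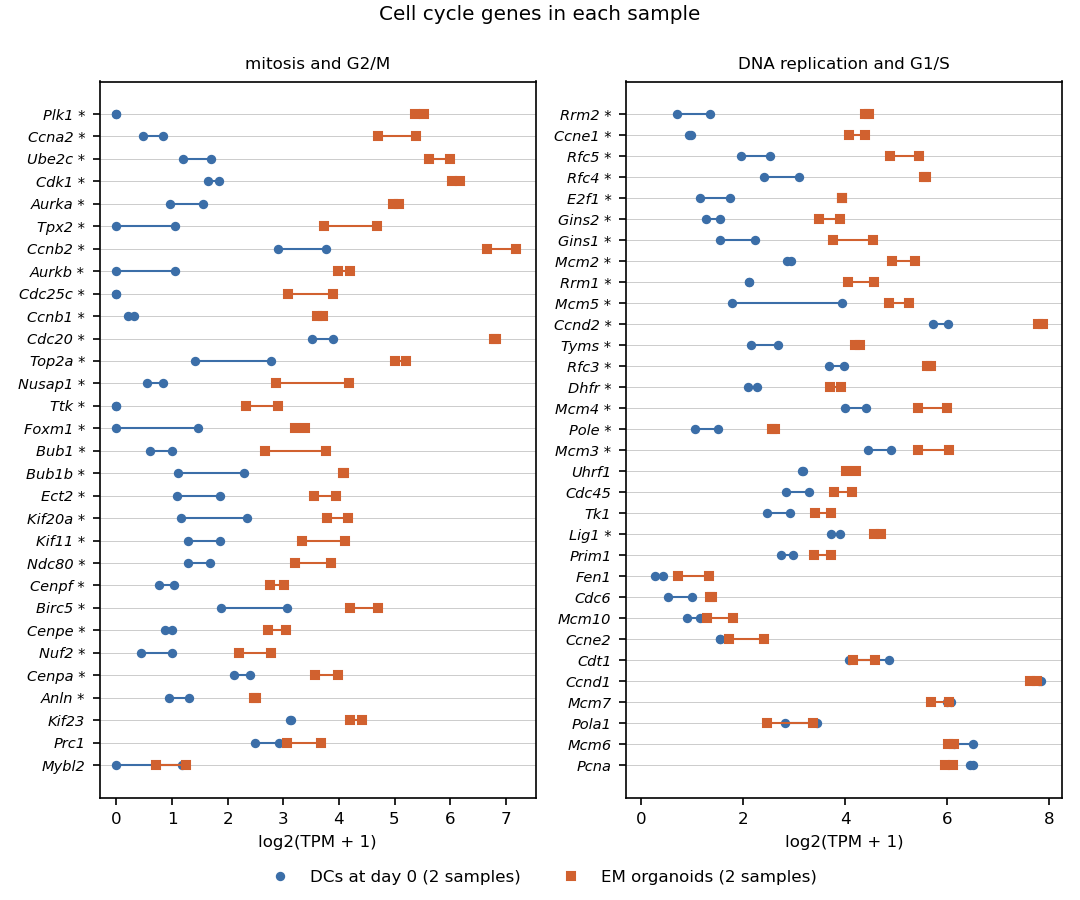
Levels of 30 mitosis and 32 replication genes on the log2(TPM + 1) axis, each with 2 DC samples (circles) and 2 EM organoid samples (squares), ordered by difference, and a star marks genes called by limma. For 27 mitosis and 18 replication genes the called squares lie to the right of the circles.

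Inhibitors of the cell cycle changed in both directions, with 7 of 18 genes higher and 6 lower, where 27.1% and 17.2% of all genes were. *Cdkn1a*, the p21 inhibitor and a p53 target, was at 1219 and 1261 TPM in DCs and 218 and 201 TPM in EM organoids and fell (-2.56 ± 0.12, limma adjusted p = 4.48e-07). The genes that encode INK4 inhibitors of CDK4 and CDK6 rose instead, *Cdkn2a* from 0.198 and 0 to 21.5 and 11.8 TPM and *Cdkn2b* from 57.8 and 42.3 to 253 and 268 TPM. These values do not separate the transcripts of a gene, so which transcript of *Cdkn2a* rose is not known. Of other genes that p53 is known to induce, *Ccng1* (19.6 and 19.3 against 189 and 189.6 TPM) and *Phlda3* (18.6 and 24.2 against 394 and 315 TPM) rose. *Btg2* (428 and 489 against 140.1 and 129 TPM) and *Sesn2* (275 and 326 against 87.3 and 83.95 TPM) fell, and *Mdm2*, the ligase that degrades p53, was at 52.9 and 53.1 TPM in DCs and 44.8 and 40.4 TPM in EM organoids without passing. *Gadd45b* of the same list, not counted here as a p53 target, fell too (581 and 511 against 97.4 and 91.4 TPM). The p53 targets of the list therefore split between the directions.

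Among Wnt targets and genes of LGR5-type progenitors, 10 of 19 genes tested were higher and 3 lower, beside the background of 27.1% and 17.2% of all genes, and *Lgr5* is one of the 10. *Axin2*, a negative regulator and target of β-catenin, was at 0.232 and 0 TPM in DCs and 4.46 and 6.26 TPM in EM organoids, and *Sp5*, a transcriptional target, at 1.27 and 0.381 TPM in DCs and 15.8 and 9.32 TPM in EM organoids. *Rnf43* and *Znrf3*, the ligases that remove Frizzled receptors, were at 3.86 and 1.51 TPM in DCs and 29.2 and 25.4 TPM in EM organoids and at 19.7 and 17.6 TPM in DCs and 39.7 and 35.6 TPM in EM organoids, respectively. All 4 of these feedback genes rose, by 2.5, 2.89, 3.01 and 0.98 on the log2 scale, with adjusted p-values by limma of 0.00205, 0.0162, 0.00241 and 0.00567. *Nkd1*, a feedback gene too, was listed at 0 in both organoid samples against 0.535 and 0.982 TPM in DCs. *Lgr4*, the receptor that most epithelial cells carry, was at 11.4 and 18.6 TPM in DCs and 17.1 and 23.1 TPM in EM organoids, without passing. Of the surface markers of progenitors, *Prom1* rose from 76.8 and 72.4 to 374 and 383 TPM and *Cd24a* from 493 and 567 to 1423 and 1437 TPM, and *Olfm4*, a secreted stem cell marker of the gut, rose from 26.4 and 9.45 to 118 and 204 TPM. *Cd44* did not pass (385 and 314 against 305 and 277 TPM). *Myc*, a Wnt target that is also an immediate early gene, went the other way and fell from 1289 and 1368 to 146 and 181 TPM (log2 difference -3.02 ± 0.18, limma adjusted p = 2.08e-06). *Smoc2* was at 6.28 and 10.2 TPM in DCs and listed at 0 in both organoid samples. Without 1 of the 4 samples, the adjusted p of limma reached 0.0951 for *Sp5* and 0.14 for *Nkd1*.

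**Figure D3:**
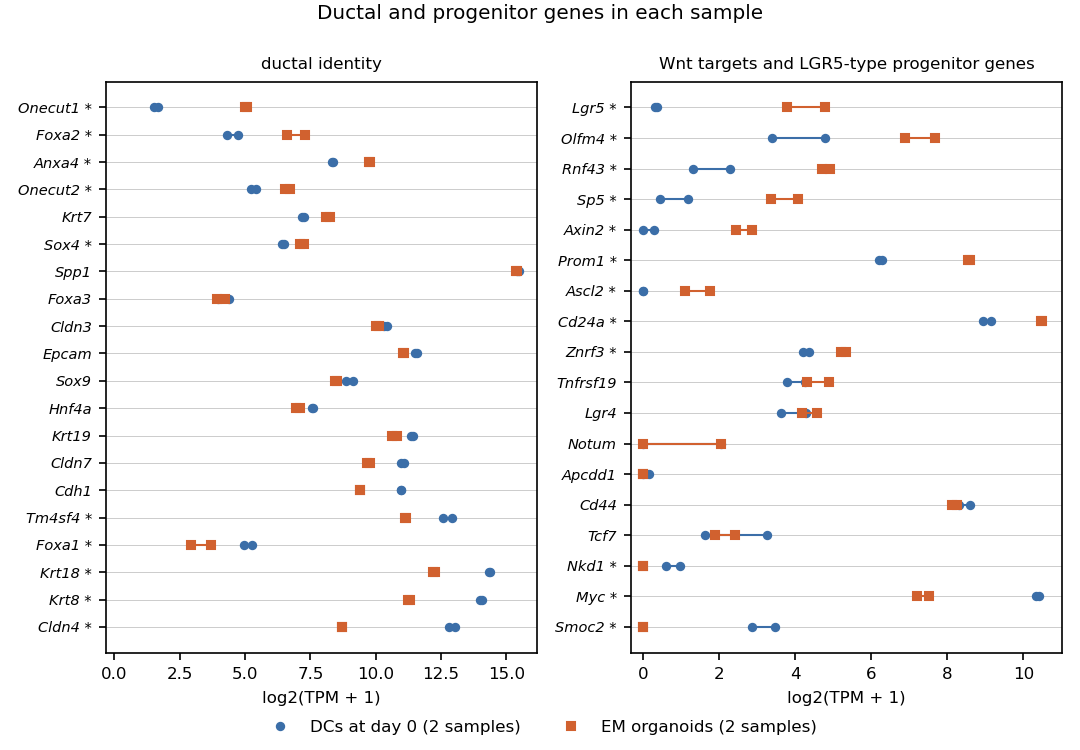
Levels of 20 ductal identity genes and 18 Wnt target and progenitor genes on the log2(TPM + 1) axis, with 2 DC samples (circles) and 2 EM organoid samples (squares) each, and a star for genes called by limma over 12 samples. *Spp1* is at the right end in both groups, and *Lgr5* and *Onecut1* head their panels by difference.

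Ductal identity genes changed in both directions. Of 21 genes 6 were higher, 5 were lower and 10 did not pass, with shares near the 27.1% and 17.2% of all genes. *Spp1*, osteopontin, was the most abundant of the list with 43285 and 45483 TPM in DCs and 42971 and 41967 TPM in EM organoids, which did not pass (log2 difference -0.06 ± 0.37). *Sox9*, the transcription factor of ducts, was at 466 and 558 TPM in DCs and 349.8 and 363 TPM in EM organoids, *Epcam* at 3084 and 2914 TPM in DCs and 2156 and 2081 TPM in EM organoids and the keratin *Krt19* at 2731 and 2612 TPM in DCs and 1791 and 1580.3 TPM in EM organoids. These 3 lay lower in both organoid samples than in both DC samples without passing, with adjusted p-values of 0.0557, 0.623 and 0.481 in the limma fit over 12 samples. In that fit the spread is shared with the stromal samples, where *Epcam* ran from 0 to 113 TPM and *Krt19* from 0 to 186 TPM, and in the fit over the 4 samples alone the adjusted p-values were 0.00924, 0.00206 and 0.00157. The latter fit called 7 of the 21 genes higher and 12 lower, beside 37.3% and 23.6% of the 14388 genes it tested. *Krt7*, the other cholangiocyte keratin, was at 153 and 143 TPM in DCs and 306 and 269 TPM in EM organoids (adjusted p = 0.185 over 12 samples and 0.000915 over 4, by limma).

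Other epithelial genes moved further. The simple epithelial keratins *Krt8* and *Krt18* fell, from 17096 and 16186 to 2549.9 and 2405 TPM (-2.75 ± 0.56) and from 20973 and 20693 to 4903 and 4713 TPM (-2.12 ± 0.70). The claudin of tight junctions *Cldn4* fell most in the list, from 8353 and 7072 to 418 and 414 TPM (-4.21 ± 0.33, limma adjusted p = 9.08e-06). E-cadherin, encoded by *Cdh1*, was at 2001 and 1997 TPM in DCs and 674 and 671 TPM in EM organoids, with an adjusted p of 0.0815 over 12 samples and 5.94e-05 over 4 by limma. The annexin *Anxa4* was at 320.2 and 326 TPM in DCs and 864 and 890.0 TPM in EM organoids and rose. Among the transcription factors of the biliary lineage, *Onecut1* rose from 1.84 and 2.18 to 32.5 and 31.1 TPM, *Onecut2* from 36.1 and 41.6 to 104 and 90.2 TPM and *Foxa2* from 25.4 and 18.9 to 96.2 and 156 TPM. *Foxa1* fell (37.98 and 29.9 against 6.55 and 11.9 TPM), and *Hnf4a* was at 187 and 192 TPM in DCs and 123 and 138 TPM in EM organoids (limma adjusted p = 0.0519). So the regulators did not move in one direction, and those that rose were low or moderate in fresh DCs. The calls of *Krt18*, *Foxa1* and *Foxa2* were lost when 1 sample was left out, with adjusted p-values by limma of up to 0.114, 0.0764 and 0.0541.

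The genes with which cholangiocytes modify bile were also mixed, with 4 of 19 genes tested higher and 5 lower (27.1% and 17.2% of all genes), and the median of the list changed sign with the scaling (0.09 with TPM and -0.09 after upper-quartile scaling). *Cftr*, the chloride channel of bile secretion, fell from 45.1 and 49.5 to 3.701 and 2.52 TPM (-3.57 ± 0.35, limma adjusted p = 3.69e-05). *Sctr*, the secretin receptor that acts upstream of it, was at 20.7 and 8.74 TPM in DCs and 1.46 and 1.17 TPM in EM organoids, and the glucose transporter *Slc5a1* at 132 and 109 TPM in DCs and 16.7 and 17.6 TPM in EM organoids. The exporter *Abcb1a* was at 55.8 and 56.7 TPM in DCs and 3.07 and 1.49 TPM in EM organoids. In contrast, *Slc4a2*, the anion exchanger that puts out bicarbonate, rose from 13.8 and 11.6 to 33.2 and 24.2 TPM, and *Bicc1*, an RNA-binding protein whose loss gives cystic ducts, rose from 34.2 and 46.5 to 298 and 305 TPM (2.89 ± 0.14, limma adjusted p = 7.76e-07). *Abcc3*, a basolateral exporter of bile salts, was at 45.6 and 43.05 TPM in DCs and 94.3 and 97.4 TPM in EM organoids, and the water channel *Aqp1* at 54.3 and 50.2 TPM in DCs and 27.6 and 12.5 TPM in EM organoids without passing (limma adjusted p = 0.053). *Pkhd1*, a gene of the primary cilium whose loss gives cystic ducts as well, fell (42.2 and 46.3 against 21.98 and 18.6 TPM). Leaving out 1 sample took the adjusted p by limma of *Abcc3* to 0.144 and that of *Pkhd1* to 0.142.

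Of genes of the fetal or regenerating epithelium 5 of 16 tested were higher and 2 lower, shares near the 27.1% and 17.2% of all genes. *Gpc3*, a heparan sulfate proteoglycan of fetal liver, rose from 9.503 and 7.78 to 323 and 293 TPM (5.01 ± 0.35, limma adjusted p = 4.69e-06). *Ly6d* (75.1 and 72.8 against 1220.5 and 1035 TPM), *Anxa8* (8.16 and 7.91 against 213 and 181 TPM), *Anxa1* (67.3 and 39.8 against 341 and 347 TPM) and *Ly6a*, which encodes SCA1 (229.8 and 194 against 612 and 621 TPM), rose too. The classical fetal liver gene *Afp* was at 0.966 and 1.14 TPM in DCs and 3.995 and 4.696 TPM in EM organoids and did not pass, and *Igf2* and *H19* were below 1 TPM in all 4 samples. *Clu* was among the most abundant transcripts in either state, with 36604 and 36012 TPM in DCs and 44116 and 44125 TPM in EM organoids. The keratins *Krt23* (1700.4 and 1512 against 42.6 and 27.1 TPM) and *Krt17* (761 and 417 against 10.4 and 2.22 TPM) were the members that fell, with log2 differences of -5.52 ± 0.52 and -6.54 ± 0.87.

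YAP targets, which respond to tension and cell spreading, were higher for 6 of 23 genes, a share near the 27.1% of all genes, and lower for 10, where 17.2% of all genes were lower. The classical targets *Cyr61*, *Ankrd1* and *F3* were among the most abundant genes of fresh DCs and fell, from 12392 and 11019 to 536 and 477 TPM, from 6070.1 and 6219.6 to 339 and 343 TPM and from 5161 and 4941 to 62.3 and 56.8 TPM. *Tgfb2* (146 and 127 against 7.12 and 6.06 TPM) fell with them. In contrast, *Ctgf* rose from 40.1 and 46.5 to 91.5 and 85.6 TPM, and so did *Axl* (7.04 and 7.68 against 35.3 and 34.1 TPM) and *Nuak2* (67.4 and 69.8 against 285 and 304 TPM). Of the factors themselves, *Wwtr1*, which encodes TAZ, fell (96.4 and 90.3 against 34.9 and 25.9 TPM) and *Yap1* was at 12.3 and 15.4 TPM in DCs and 8.83 and 8.999 TPM in EM organoids without passing. *Tead2*, a DNA-binding partner, rose from 9.29 and 5.64 to 34.3 and 36.2 TPM. Some of the targets that fell are immediate early genes as well. The adjusted p of *Ctgf* was 0.052 in limma without the first DC sample.

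A list of receptors for factors in EM also holds relatives of these receptors and Wnt receptors. Of its 22 genes tested 6 were higher, 4 lower and 12 did not pass, so that their shares were near the background of 27.1% and 17.2%. *Fgfr2*, whose IIIb form binds FGF10, rose from 33.2 and 31.7 to 171 and 182 TPM (2.41 ± 0.30, limma adjusted p = 0.000149), while *Fgfr1* fell from 126 and 132 to 6.02 and 6.74 TPM (-4.14 ± 0.32, adjusted p = 7.99e-06 by limma) and *Fgfr4*, a receptor of hepatocytes, was at 57.9 and 65.7 TPM in DCs and 24.9 and 28.1 TPM in EM organoids. These values do not separate splice forms. The EGF receptor *Egfr* (41.4 and 50.4 against 31.5 and 35.9 TPM) and the HGF receptor *Met* (94.7 and 82.1 against 53.05 and 58.4 TPM) did not pass, and their relatives *Erbb2* (21.7 and 20.2 against 103 and 107 TPM) and *Erbb3* (41.4 and 27.8 against 85.1 and 85.1 TPM) rose. *Cckbr*, the receptor of gastrin, was listed at 0 in all 4 samples. Of the Wnt receptors, *Fzd5* fell (11.2 and 10.3 against 2.72 and 3.06 TPM), and *Fzd2* was listed at 0 in both DC samples and stood at 5.43 and 4.75 TPM in organoids. With 1 sample left out the adjusted p was up to 0.106 for *Erbb3* and 0.0513 for *Fgfr4* by limma.

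Genes that feed back on ERK signalling were lower for 9 of 14 and higher for none, beside 17.2% and 27.1% of all genes. *Dusp5*, a nuclear phosphatase of ERK, fell from 1041 and 934 to 59.1 and 59.1 TPM, *Errfi1*, an inhibitor of EGFR, from 1807 and 1901 to 139 and 168 TPM and *Ier3* from 9134 and 7925 to 684 and 766 TPM. *Spry4*, an inhibitor of the RAS-ERK cascade, was at 8.59 and 14.1 TPM in DCs and 1.895 and 0.99 TPM in EM organoids. *Dusp6*, the cytoplasmic phosphatase, fell less (236 and 253 against 156 and 145 TPM, -0.70 ± 0.17), and *Etv4* (2.81 and 4.99 against 8.49 and 5.55 TPM) and *Etv5* (10.1 and 18.1 against 13.4 and 15.7 TPM) did not pass. Of BMP and TGF-β response genes 5 of 16 were higher and 7 lower (27.1% and 17.2% of all genes). *Id1* (195 and 211 against 1008 and 1017 TPM) and *Id2* (216 and 352 against 2193 and 2226 TPM), inhibitors of bHLH factors that BMP induces, rose, whereas *Id3* (178 and 181 against 49.6 and 56.6 TPM) fell, as did the TGF-β-responsive corepressors *Skil* (63.8 and 70.2 against 10.6 and 12.5 TPM) and *Tgif1* (598 and 554 against 68.8 and 72.3 TPM). *Hamp*, the BMP-induced iron hormone of hepatocytes, was at 116 and 114 TPM in DCs and listed at 0 in both organoid samples, and moved together with the hepatocyte markers given further on. The call of *Dusp6* was lost without the second DC or the second organoid sample (limma adjusted p up to 0.0536).

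In the Notch pathway 4 of 17 genes tested rose and 2 fell, again near the shares of all genes (27.1% and 17.2%). The ligand *Jag1* was at 15.9 and 31.3 TPM in DCs and 62.02 and 66.5 TPM in EM organoids (1.48 ± 0.28, limma adjusted p = 0.0021), *Hes6*, a HES family member that opposes HES1, at 14.3 and 21.04 TPM in DCs and 168 and 119 TPM in EM organoids, and the modifying enzyme *Lfng* at 0.928 and 0.893 TPM in DCs and 6.71 and 4.63 TPM in EM organoids. The ligand *Jag2* rose as well (3.35 and 1.02 against 6.88 and 10.2 TPM). The receptor *Notch2* (21.6 and 22.5 against 21.4 and 18.4 TPM) and the target *Hes1* (292 and 275 against 230.2 and 243 TPM) did not pass. The target *Heyl* (2.04 and 1.47 TPM in DCs) and the ligand *Dll4* (4.53 and 4.36 TPM in DCs) were listed at 0 in both organoid samples. Without 1 sample the adjusted p of *Jag2* reached 0.209 by limma.

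**Figure D4:**
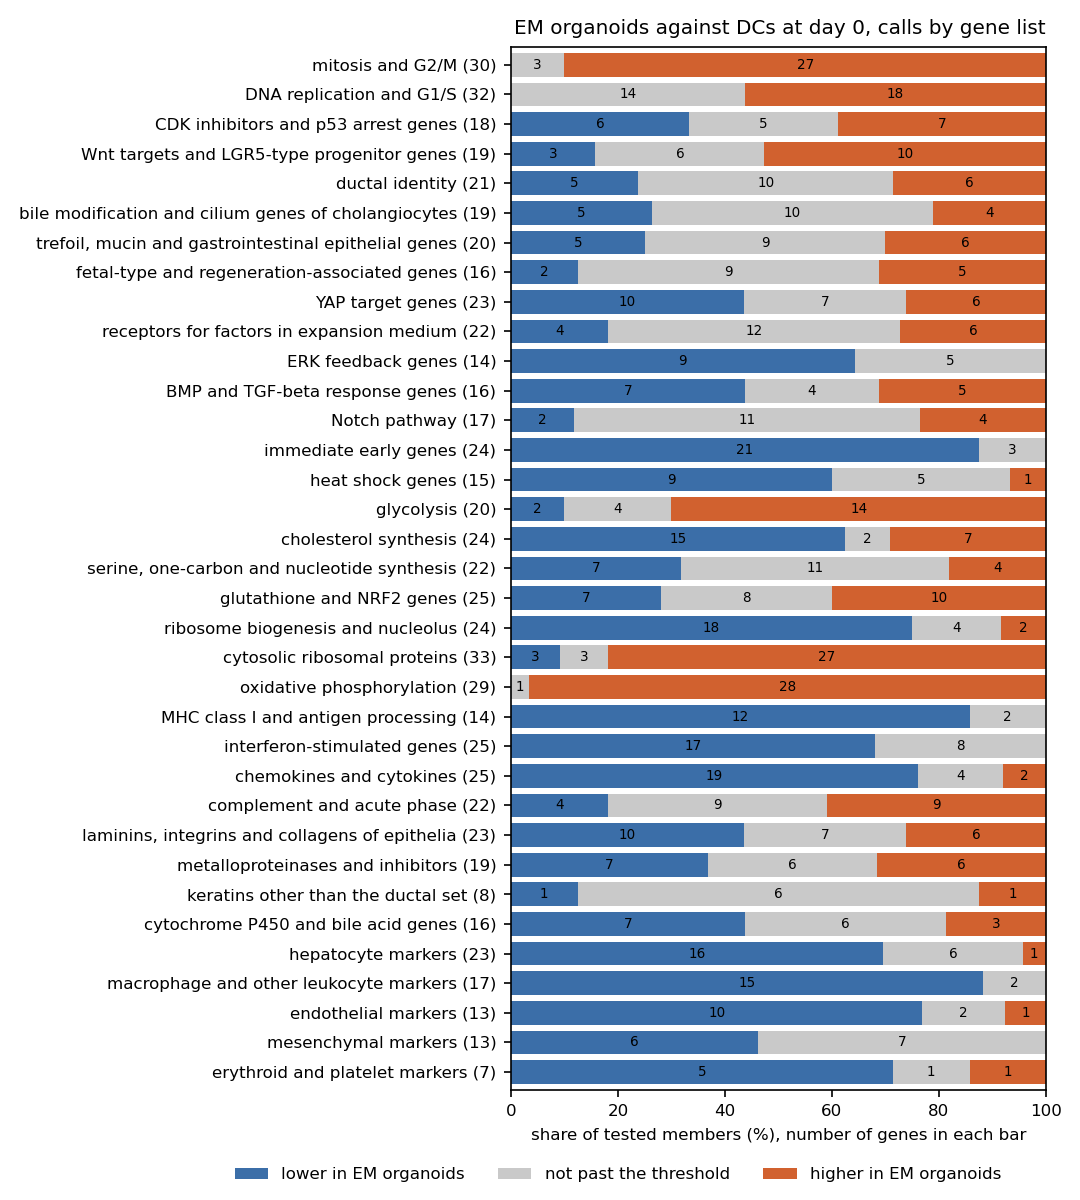
Share of the tested members of 35 gene lists called higher (orange), called lower (blue) or not past the threshold (grey) in EM organoids against DCs at day 0, with gene numbers in the bars and the number tested beside the name. Oxidative phosphorylation holds 28 genes called higher of 29, and the immediate early genes hold 21 called lower of 24.

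Immediate early genes, whose transcription starts within minutes of a stimulus, fell as a group. Of 24 genes 21 were lower in EM organoids (17.2% of all genes were), none was higher and 3 did not pass. Their median log2 difference was -2.67. *Fos* and *Jun*, which form the AP-1 factor, were at 1243 and 1242 TPM in DCs and 73.2 and 65.6 TPM in EM organoids and at 441 and 496 TPM in DCs and 76.4 and 95.9 TPM in EM organoids, and *Egr1* was at 1408 and 1447 TPM in DCs and 176 and 172 TPM in EM organoids. *Atf3*, a stress-induced factor, was at 1779 and 1739 TPM in DCs and 4.62 and 3.42 TPM in EM organoids (-8.46 ± 0.30, limma adjusted p = 1.69e-07), and *Fosl1*, an AP-1 subunit, at 2032 and 2335 TPM in DCs and 5.25 and 7.16 TPM in EM organoids (-8.25 ± 0.36, limma adjusted p = 4.09e-07). *Zfp36*, which brings about the decay of cytokine mRNAs, was at 970.5 and 937 TPM in DCs and 27.4 and 24.4 TPM in EM organoids, and the AP-1 subunit *Fosb* at 129.6 and 116 TPM in DCs and 0.269 and 0.476 TPM in EM organoids. For each of these 7 genes the lowest DC sample lay far above the highest organoid sample. Fresh DCs of the 3 mice of the second experiment were high as well, with deposited values of 3567, 3626 and 2495 for *Fos* and 3280.3, 2688 and 2015 for *Atf3*. Summed over the list, DCs at day 0 held 16398 and 16396 TPM and EM organoids 1554 and 1648 TPM. Fresh DCs had passed through digestion of the liver and sorting just before lysis, whereas the organoids were 15 days away from it, so that growth in EM and distance from isolation cannot be told apart in this comparison.

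Of 19 immediate early genes with a RefSeq window 2 (10.5%) held a CArG box, the binding motif of serum response factor, and 2 (10.5%) held the cyclic AMP response element TGACGTCA, against 1.81% and 2.03% of all genes with a window, both strands searched. The window of *Zfp36* (chr7:28379179-28379478, minus strand, GRCm38.p6), the gene with the largest called fall that holds either, is shown with its CArG box in capitals.
Zfp36: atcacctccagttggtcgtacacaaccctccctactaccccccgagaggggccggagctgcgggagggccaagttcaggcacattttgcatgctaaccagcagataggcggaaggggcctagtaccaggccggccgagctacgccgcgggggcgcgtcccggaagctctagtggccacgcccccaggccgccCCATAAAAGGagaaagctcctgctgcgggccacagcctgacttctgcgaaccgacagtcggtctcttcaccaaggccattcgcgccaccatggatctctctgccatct
Windows of this length do not reach distal elements.

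**Figure D5:**
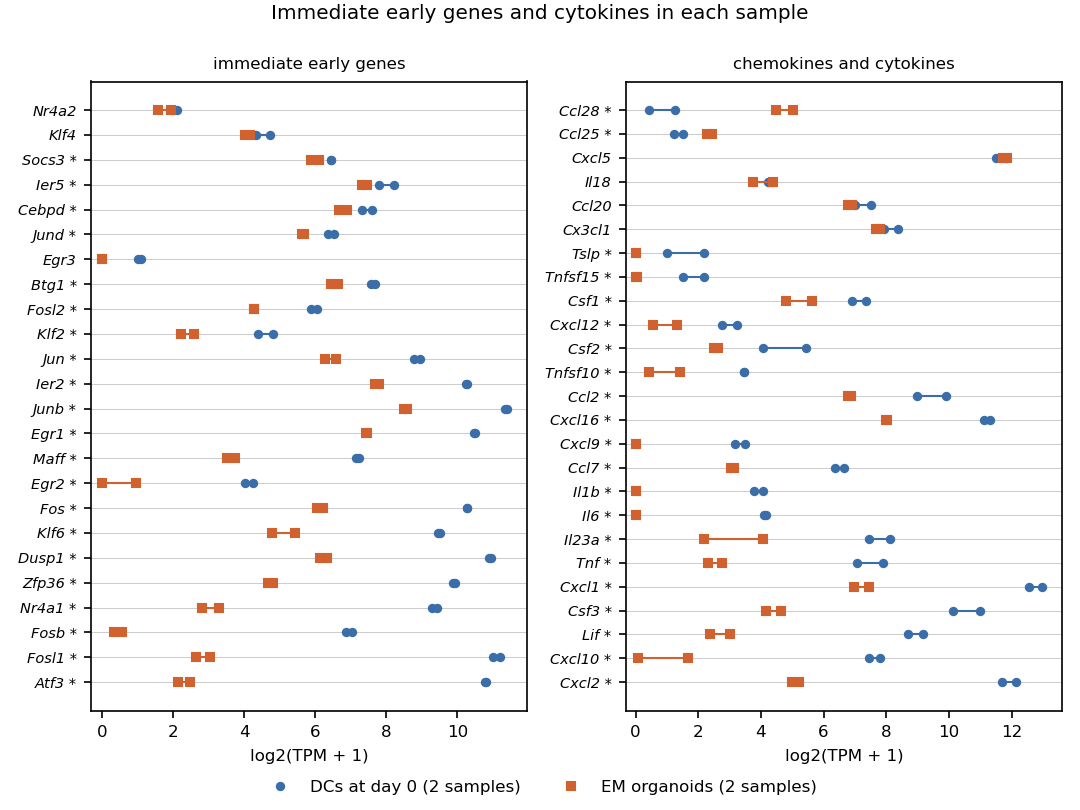
Levels of 24 immediate early genes and 25 chemokines and cytokines on the log2(TPM + 1) axis, with 2 DC samples (circles) and 2 EM organoid samples (squares) each, and a star for genes called by limma. In both panels the called genes have their squares to the left of the circles, except *Ccl25* and *Ccl28*.

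Heat shock genes followed in part, with 9 of 15 lower and 1 higher, beside 17.2% and 27.1% of all genes. The inducible chaperone *Hspa1a* (67.2 and 74.2 against 19.2 and 18.5 TPM), the small heat shock protein gene *Hspb1* (212 and 173 against 50.6 and 44.8 TPM) and the endoplasmic reticulum chaperone *Hspa5* (2278 and 2434 against 657 and 713 TPM) fell. The constitutive *Hspa8* was at 177 and 221 TPM in DCs and 256 and 262 TPM in EM organoids (0.39 ± 0.11, limma adjusted p = 0.0204), a rise that upper-quartile scaling turned to -0.03. The adjusted p of *Hspa8* was up to 0.144 by limma with 1 sample left out.

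Chemokines and cytokines were lower for 19 of 25 genes and higher for 2, beside 17.2% and 27.1% of all genes. The neutrophil attractants *Cxcl1* and *Cxcl2* were among the most abundant genes of fresh DCs and fell from 7964 and 6030.3 to 174 and 125 TPM and from 4555 and 3288 to 30.8 and 35.8 TPM (-5.54 ± 0.53 and -6.82 ± 0.32). *Cxcl5*, a relative with the same receptor, was at 3599.5 and 2898 TPM in DCs and 3412 and 3658 TPM in EM organoids and did not pass. *Lif* (574 and 411 against 7.03 and 4.18 TPM), the interferon-induced *Cxcl10* (219.5 and 174 against 0.0622 and 2.23 TPM) and the monocyte attractant *Ccl2* (953 and 505 against 115 and 109 TPM) fell, and *Il6* was at 16.03 and 16.8 TPM in DCs and at 0 and 0 TPM in organoids. The chemokines that rose were *Ccl28* (1.37 and 0.342 against 21.4 and 31.5 TPM), a mucosal attractant, and *Ccl25* (1.34 and 1.89 against 4.42 and 3.85 TPM). The call of *Ccl25* was lost when 1 sample was left out (limma adjusted p up to 0.112).

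Leukocyte markers moved with these genes. All 15 called genes of 17 tested were lower in EM organoids, where 17.2% of all genes were. The summed level of the 19 markers was 2602 and 1869 TPM in DCs at day 0 and 58.3 and 40.7 TPM in organoids. *Ptprc*, which encodes CD45, was at 2.49 and 1.79 TPM in DCs, the Kupffer cell gene *Clec4f* at 5.17 and 10.9 TPM and *C1qa* at 15.3 and 9.53 TPM, and all 3 were listed at 0 in the organoids. The MHC class II genes *Cd74* (1782 and 1244 against 23.8 and 8.22 TPM) and *H2-Ab1* (at 292 and 211 TPM in DCs and listed at 0 in organoids) carried most of the sum. The second experiment's DCs held 308 to 732 in deposited units for the same list, with *C1qa* at 0, 0 and 2.46, and their *Cxcl1* was at 12202, 8273 and 6116. The sort had left out CD45+ and CD11b+ cells. The part of leukocyte RNA in the immune genes of the fresh DCs was not tested.

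Class I antigen presentation and interferon-stimulated genes fell too. Of 14 MHC class I and processing genes 12 were lower and none higher, where 17.2% of all genes were lower and 27.1% higher. The heavy chains *H2-K1* and *H2-D1* fell from 3401 and 3050.0 to 599.8 and 583 TPM and from 3389 and 3023 to 626 and 599 TPM, their light chain *B2m* from 4062 and 3704 to 2381 and 2351 TPM and *Nlrc5*, the transactivator of these genes, from 19.4 and 23.6 to 0.0165 and 0 TPM. *H2-Q7* was at 58.3 and 51.8 TPM in DCs and 1.02 and 0.257 TPM in EM organoids. Heavy chain genes have near-identical relatives, so that the values of single members are uncertain. Of 25 interferon-stimulated genes 17 were lower and none higher, among them *Isg15* (85.2 and 63.2 against 3.34 and 7.25 TPM), *Gbp2* (77.3 and 85.4 against 5.68 and 0.56 TPM), *Rsad2* (21.8 and 17.8 against 0 and 0.977 TPM) and *Irf7*, the interferon regulatory factor of the antiviral response (26.8 and 23.8 against 4.27 and 12.3 TPM). The remaining 8 did not pass. Without 1 sample, *Irf7* reached an adjusted p of 0.161 by limma.

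Defence genes made by epithelia and liver moved in both directions. Of 22 complement and acute phase genes tested 9 were higher and 4 lower, beside 27.1% and 17.2% of all genes, with a median of 0.78. The fit over the 4 samples alone called 12 of 20 higher and 1 lower, beside 37.3% and 23.6% of the genes it tested. *Lbp*, which binds lipopolysaccharide, rose from 24.9 and 28.5 to 853 and 859 TPM (4.95 ± 0.14, limma adjusted p = 5.21e-08), and *C3*, the central complement component, from 1212 and 1142 to 2914 and 3048 TPM. *C4b* (13.9 and 11.5 against 122 and 146 TPM), the haemoglobin-binding *Hp* (57.5 and 66.9 against 591 and 444 TPM) and *Saa3* (0.312 and 1.04 against 44.5 and 41.6 TPM) rose too, while *C2* (14.9 and 18.4 against 11.9 and 4.33 TPM) and *Serpina3n* (3.43 and 11.9 against 0.0679 and 2.12 TPM) fell. *Lcn2*, an iron-binding antibacterial protein, was at 8131 and 6796 TPM in DCs and 17958 and 17680.3 TPM in EM organoids, with an adjusted p of 0.0903 over 12 samples and 0.000312 over 4 by limma. *Orm1*, made by hepatocytes, fell (16.2 and 32.4 against 2.89 and 0 TPM). Leaving out 1 sample raised the adjusted p by limma of *C2*, *Serpina3n* and *Orm1* to at most 0.192, 0.216 and 0.222.

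Of trefoil, mucin and gastrointestinal genes 6 of 20 tested were higher and 5 lower, near the 27.1% and 17.2% of all genes, and antimicrobial lectins of the gut were among those that rose. *Reg3b* was listed at 0 in both DC samples and stood at 112 and 355 TPM in organoids, and *Reg3g* (2.31 and 0 against 48.9 and 34.1 TPM) and *Reg1* (1.03 and 0 against 62.2 and 32.9 TPM) rose as well. Reads of these related genes may be split between them. *Cldn2*, a claudin that forms cation pores, rose from 33.4 and 40.6 to 1322 and 1373 TPM (5.16 ± 0.49, limma adjusted p = 3.1e-05). *Muc1*, the main mucin here, was at 1443 and 1142 TPM in DCs and 2557 and 2271 TPM in EM organoids and did not pass over 12 samples (limma adjusted p = 0.265, and 0.00237 over 4). *Tff3* rose from 0.236 and 0 to 15.6 and 6.04 TPM, and the trefoil gene *Tff2* was at 74.02 and 82.4 TPM in DCs and 156 and 183 TPM in EM organoids without passing. In the other direction, *Muc6* (7.76 and 13.3 against 0.0599 and 1.32 TPM) and *Pigr*, which carries IgA into bile (82.5 and 113 against 17.8 and 12.5 TPM), fell, and *Agr2* was at 3.42 and 8.54 TPM in DCs and listed at 0 in the organoids. The gastric genes *Gkn1*, *Gkn2*, *Cldn18* and *Muc5ac* were listed at 0 in all 4 samples.

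Most genes of glycolysis and of oxidative phosphorylation rose. Of 20 glycolysis genes 14 were higher and 2 lower, beside 27.1% and 17.2% of all genes, with a median of 1.48 (1.07 after upper-quartile scaling). *Pkm*, the pyruvate kinase of proliferating cells, rose from 43.05 and 50.6 to 457 and 499 TPM (3.33 ± 0.15, limma adjusted p = 4.51e-07), *Pfkl*, a phosphofructokinase, from 59.2 and 76.5 to 344 and 405 TPM and *Ldha* from 216 and 217 to 693 and 759.6 TPM. *Pdk1*, a kinase that inhibits pyruvate dehydrogenase, was at 0.941 and 2.05 TPM in DCs and 24.9 and 20.9 TPM in EM organoids. The glucose transporter *Slc2a1* (764 and 788 against 294 and 284 TPM) and the platelet-type phosphofructokinase *Pfkp* (47.8 and 57.3 against 18.3 and 19.9 TPM) fell instead. Of 29 genes of oxidative phosphorylation 28 were higher and *Cycs* alone did not pass, with a median of 1.02 (0.61 after upper-quartile scaling, which left 22 higher and put 1 lower). *Ndufv2* of complex I (68.8 and 67.6 against 273 and 261 TPM) and *Sdhc* of complex II (39.8 and 43.1 against 166 and 166 TPM) were among the members with the largest rise. Both routes of ATP production were thus higher in transcript share, and oxidative phosphorylation was the more uniform list. The levels of *Gapdh* (39.5 and 38.05 against 102 and 109 TPM), *Pgk1* and *Cycs* were low for such genes, which have many near-identical copies in the genome, and reads that map to several places were filtered by mapping quality. The call of *Pgk1* was lost without the second organoid sample (limma adjusted p = 0.0613).

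Sterol synthesis fell in most steps, with 15 of 24 genes lower and 7 higher, beside 17.2% and 27.1% of all genes. *Cyp51*, the lanosterol demethylase, was at 421 and 417 TPM in DCs and 78.2 and 71 TPM in EM organoids, with a log2 difference of -2.48 ± 0.13 (limma adjusted p = 9.63e-07). *Insig1*, which holds back the SREBP factors of the pathway, fell too (156 and 176 against 29.7 and 29.6 TPM). Mevalonate kinase, *Mvk* (18.2 and 14.8 against 65.1 and 56.7 TPM), and the sterol isomerase *Ebp* (30.5 and 36.4 against 83.4 and 104 TPM) rose. In serine and one-carbon metabolism 4 of 22 genes were higher and 7 lower, beside 27.1% and 17.2% of all genes. The mitochondrial enzyme *Mthfd2* fell from 317 and 357 to 26.4 and 20.5 TPM (-3.80 ± 0.20, limma adjusted p = 1.06e-06), and *Asns* (439 and 503 against 107 and 86.5 TPM) and *Psat1* (252 and 278 against 78.5 and 72.2 TPM), targets of ATF4, fell. *Phgdh*, which starts serine synthesis, was at 124 and 164 TPM in DCs and 116 and 98.4 TPM in EM organoids and did not pass. The purine enzyme *Paics* (161 and 161 against 411 and 428 TPM) and the pyrimidine enzymes *Cad* (3.56 and 5.57 against 19.1 and 9.72 TPM) and *Dhodh* (3.27 and 3.97 against 14.8 and 17.99 TPM) rose. For *Cad* the adjusted p by limma reached 0.0891 with 1 sample left out.

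Of 25 glutathione and NRF2 genes 10 were higher and 7 lower, beside 27.1% and 17.2% of all genes, with a median log2 difference of -0.13. *Hmox1*, heme oxygenase, fell from 2106 and 3039 to 52.4 and 50.8 TPM (-5.59 ± 0.24, limma adjusted p = 4.09e-07), and *Txnrd1* (948 and 976 against 140.1 and 130.3 TPM) and *Gclc* (292 and 538 against 91.3 and 102 TPM) fell. *Gpx2*, the gastrointestinal glutathione peroxidase, rose from 58.1 and 57.97 to 982 and 848 TPM (3.95 ± 0.39), *Gsta4*, a transferase for lipid aldehydes, from 48 and 72.2 to 1049.6 and 1047 TPM and the extracellular peroxidase *Gpx3* from 34.03 and 43.9 to 302 and 317 TPM. *Gpx1*, the cytosolic peroxidase, fell (2453 and 2260.1 against 1141 and 1104 TPM), and *Nqo1*, a classical NRF2 target, was at 2.02 and 3.81 TPM in DCs and 2.62 and 1.71 TPM in EM organoids without passing.

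Ribosomal protein genes and the genes that assemble ribosomes moved in opposite directions. Of 33 cytosolic ribosomal proteins 27 were higher and 3 lower, beside 27.1% and 17.2% of all genes. Their median was 1.13, and their summed level was 11921 and 11399.9 TPM in DCs and 27261 and 28492 TPM in organoids. *Rplp1* (1142 and 1024 against 3484 and 3875 TPM), *Rpl22* (92.6 and 87.4 against 289.5 and 288 TPM) and *Rps20* (79.2 and 65.7 against 235 and 252 TPM) rose most. The 3 that fell, *Rpl11* (23.5 and 21.6 against 9.67 and 7.84 TPM), *Rpl28* (23.6 and 22.6 against 10.4 and 10.1 TPM) and *Rps6* (15.3 and 15.9 against 8.396 and 8.39 TPM), were at low levels. Reads shared with processed pseudogenes may be missing from these 3, from genes that rose and from the summed level. Of 24 ribosome biogenesis genes 18 were lower and 2 higher, with a median of -1.44. Nucleolin, *Ncl*, was at 408 and 425 TPM in DCs and 159.8 and 153 TPM in EM organoids, the processing factors *Nop56* (212 and 234 against 63.9 and 69.3 TPM), *Rrp9* (242 and 223 against 45.3 and 50.5 TPM) and *Rrp12* (95.05 and 74.4 against 16.3 and 17.7 TPM) fell, and *Gnl3*, nucleostemin, fell from 647 and 787 to 80.99 and 112 TPM (-2.89 ± 0.17, limma adjusted p = 1.87e-06). *Nop10* rose (89.1 and 81.7 against 299.8 and 316 TPM), and the rise of *Npm1* (390.2 and 412 against 512 and 545 TPM, 0.40 ± 0.09) turned to -0.02 after upper-quartile scaling. The calls of *Rpl11* and *Rps6* were lost when 1 sample was left out (adjusted p by limma up to 0.0616 and 0.115).

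Matrix and adhesion genes were mixed, with 6 of 23 laminin, integrin and collagen genes higher and 10 lower (all genes: 27.1% higher and 17.2% lower). The integrins *Itgav* (239.6 and 217 against 18.3 and 16.2 TPM), *Itgb6* (252 and 160.4 against 10.9 and 16.6 TPM), which form a receptor that activates TGF-β, and *Itga2* (151 and 132 against 34.8 and 25.8 TPM) fell. Fibronectin, *Fn1*, rose from 92.5 and 72.3 to 389 and 416 TPM and the laminin chains *Lamb1* (11.5 and 7.3 against 29.7 and 21 TPM) and *Lamb3* (36.9 and 25.2 against 94.5 and 73.4 TPM) rose, while the laminin chain *Lama3* (7.71 and 2.84 against 0.444 and 0.903 TPM) fell. Among 19 proteases and inhibitors 6 were higher and 7 lower. *Mmp7*, an epithelial matrilysin, rose from 114 and 89.6 to 2553 and 2085 TPM (4.50 ± 0.92, limma adjusted p = 0.00321), as did the inhibitor *Timp3* (64.5 and 60.9 against 145 and 224 TPM), while the urokinase receptor *Plaur* (3361 and 3252 against 100.5 and 113 TPM), the plasminogen activator *Plat* (361 and 336 against 19.3 and 18.5 TPM) and the aggrecanase *Adamts4* (60.4 and 32.2 against 2.13 and 0.358 TPM) fell. Of 8 other keratins tested, *Krt10* rose (1.98 and 0.832 against 10.9 and 8.22 TPM) and *Krt80* fell (64.3 and 70.8 against 4.35 and 1.32 TPM), and the stratified epithelial keratins *Krt5*, *Krt6a*, *Krt13* and *Krt14* were listed at 0 in all 4 samples. The calls of *Lamb3*, *Lama3* and *Krt80* were lost in limma without 1 sample, at adjusted p-values of up to 0.118, 0.0566 and 0.0536.

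Markers of other liver cells fell as well, and the counts that follow stand beside 17.2% of all genes lower and 27.1% higher. Of 23 hepatocyte markers 16 were lower and 1, *Trf* (41.3 and 57.4 against 319 and 375 TPM), was higher, and their summed level was 5650.2 and 7285 TPM in DCs and 2844 and 2715 TPM in organoids. *Apoa2* was at 355 and 393 TPM in DCs and 3.13 and 5.25 TPM in EM organoids, and *Apoc3* and *Arg1* were at 81.1 and 133 TPM and 34.6 and 53.1 TPM in DCs and listed at 0 in the organoids. Other genes on the list did not pass, with *Ttr* at 506 and 593 TPM in DCs and 883 and 917 TPM in EM organoids, *Fga* at 150.1 and 222 TPM in DCs and 839 and 724 TPM in EM organoids and *Alb* at 3274 and 4284 TPM in DCs and 509 and 416 TPM in EM organoids (limma adjusted p = 0.245 over 12 samples and 0.000105 over 4). Of P450 and bile acid genes 7 of 16 tested were lower and 3 higher, with the hepatocyte genes *Cyp2e1* (28.3 and 57.8 against 0 and 0.0726 TPM) and *Cyp2f2* (21.4 and 50.2 against 2.91 and 1.47 TPM) among those that fell and *Cyp4b1* (17.4 and 17.99 against 35.1 and 42.8 TPM) and *Cyp2s1* (13.7 and 14.1 against 23.8 and 29.8 TPM) among those that rose. Of 13 endothelial markers 10 were lower and 1 higher, with a summed level of 86.1 and 84.4 TPM in DCs and 21.1 and 18.7 TPM in organoids, and *Clec4g*, *Lyve1* and *Stab2* of the sinusoids were listed at 0 in the latter against 32.2 and 31.2, 7.404 and 7.99 and 6.58 and 5.14 TPM in DCs. Of 13 mesenchymal markers 6 were lower and none higher, with sums of 83.1 and 106 TPM against 11.5 and 3.12 TPM, of which the proteoglycan *Dcn* gave 49.6 and 66.6 against 1.75 and 0.3 TPM. Of 7 erythroid and platelet markers tested 5 were lower and 1, *Pf4* (38.5 and 21.3 against 72.3 and 64.5 TPM), was higher, with sums of 5245 and 5335 TPM against 74.5 and 65.9 TPM. The largest falls of all were those of the globin genes. *Hbb-bs* was at 3173 and 3226 TPM in DCs and listed at 0 in organoids, and the same held for *Hbb-bt*, *Hba-a1* and *Hba-a2*, whose near-identical sequences leave their separate levels uncertain. The red cell membrane gene *Slc4a1* was listed at 0 in all 4 samples. In these bulk samples fewer cells of a type and less RNA per cell cannot be told apart. When the 5 marker lists (hepatocyte, leukocyte, endothelial, mesenchymal and erythroid) were left out and TPM was rescaled, 4832 genes were higher and 3098 lower. *Cyp2s1* and *Cyp4b1* lost their calls without 1 sample (limma adjusted p up to 0.121 and 0.115).

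Over all genes, the 15 largest called rises without overlap of the groups were led by *Aqp5*, a water channel of secretory epithelia, at 0.906 and 0.0959 TPM in DCs and 347 and 299 TPM in EM organoids (7.80 ± 0.36, limma adjusted p = 5.12e-07). *Reg3b* and *Ltf*, lactoferrin (5.73 and 0 against 457 and 445 TPM), followed, then *Sptssb* (0.7 and 1.4 against 277 and 308 TPM), a small subunit of the enzyme that starts sphingolipid synthesis, and the cadherin *Cdh17* (1.402 and 0.893 against 203 and 216 TPM). *Tmem54*, *Psrc1*, *Tmeff2*, *Vnn3*, *Plk1*, *Gcnt3*, *Tmprss4*, *Chil1*, *Car9* and *Cldn2* complete them, with *Gcnt3*, a mucin-type glycosyltransferase, at 0.135 and 0 TPM in DCs and 55.7 and 36.2 TPM in EM organoids. *Car9*, a carbonic anhydrase known as a hypoxia target, was at 15.8 and 13.8 TPM in DCs and 522 and 634 TPM in EM organoids. For *Aqp5*, fresh DCs of the second experiment had deposited values of 10.34, 6.708 and 5.827, above both DC samples compared here. Among the 15 largest falls were the 4 globins, the immunoglobulin gene *Igkc*, the MHC class II genes *H2-Ab1* and *H2-Aa* and the hepatocyte genes *Fabp1* and *Hamp*. The MHC gene *H2-Q6* and the genes *Atf3*, *Fosl1* and *Cxcl2* were among them as well. Levels in fresh DCs of the second experiment differed for some of these genes. Deposited values there were 0.0, 3.368 and 150.9 for *Igkc*, 2.436, 7.965 and 25.63 for *H2-Aa* and 829.6, 1086.8 and 301.9 for *Hbb-bs*. *Fosl1*, at 2042.7, 1910.2 and 2262.3 there, was about as high as in DCs at day 0.

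Organoids co-cultured with SCA1+Msc for 15 days are set beside EM organoids as levels only. Their medium lacked the growth factors added to EM, but it was supplemented with WNT3A-conditioned medium. *Lgr5* was at 12.8 and 26.4 TPM in EM organoids and 0.555 and 0 TPM in co-cultured organoids, and *Mki67* at 13.1 and 12.6 TPM against 8.698 and 12.1 TPM. Of the 15 genes with the largest rise, both co-cultured samples lay below both EM samples for 7, above both for 5, and within or across their range for 3. Of the first 5 in order, *Aqp5* (347 and 299 TPM against 223 and 169 TPM) and *Reg3b* (112 and 355 TPM against 2.84 and 1.86 TPM) were lower in co-culture. *Sptssb* (277 and 308 TPM against 701 and 731 TPM) and *Cdh17* (203 and 216 TPM against 389 and 355 TPM) were higher there, and *Ltf* overlapped (457 and 445 TPM against 661 and 337 TPM). The 2 cultures differ in their medium as well as in the stromal cells, and their difference was not tested here.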

How the data were processed

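Ductal cells were sorted and their RNA was converted to cDNA by Smart-seq2, which keeps no strand. According to the labels and the methods, single reads were aligned with STAR (2.5.0a) to GRCm38, filtered by mapping quality and counted per Ensembl gene with featureCounts (1.6.0), and the authors deposited RPKM values for the transwell experiment. The values deposited by the authors for the DCs of the second experiment are named TPM but do not sum to one total, so they are treated as a score and set side by side only.

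Each RPKM column was scaled to a sum of 1000000 (TPM), and 18136 genes with at least 1 TPM in at least 2 of 12 transwell samples were fitted as log2(TPM + 1) in limma 3.58.1 (R 4.3.3, eBayes with a trend), with the 6 groups as terms and Benjamini-Hochberg adjustment. The pseudocount of 1 understates the change of low genes. Reads were read back from the low RPKM values of the 4 samples with exon lengths, and 92.5% to 93.0% of those values were whole reads within a tolerance of 0.02. The variance between replicates was 27.7 times that of counting noise in DCs and 21.1 times in EM organoids. A zero means up to 3 reads at this depth, for counting error only. On simulated data of this comparison over 18136 genes, 70.5% of 200 genes changed by 2 on the log2 scale were recovered, and 6.62% of the calls were wrong. The noise was normal, with the variances of the fit itself, so the simulation cannot check the variance model. It also changed far fewer genes than were called in the data.

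The comparison, its 37 gene lists and their members were chosen with earlier results of these data known. Named genes are *Lgr5* and *Mki67*, preselected members of the lists, the 3 members of each list with the largest called rise and fall, and the 15 genes with the largest rise and fall over all genes without overlap between groups, leaving out predicted genes. A further 48 members were named after their values were seen, and some genes of the rule are not reported here. Promoter windows came from RefSeq (GRCm38.p6). The alternatives were another pseudocount, other filters, scalings, models and samples, and a replicate block. Samples with the same number did not deviate together (correlation 0.00863 over genes), so the numbers were not taken as pairs. Authors' comparisons were not used.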

Additional observations from a re-analysis of the deposited data

How the results depend on the processing

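The counts of genes higher and lower in EM organoids stayed within 1.5 times of 4917 and 3128 under 15 alternatives, and the 4-sample fit gave 5372 and 3393. Upper-quartile scaling turned the balance, with 3561 higher and 4229 lower, and quantile normalization gave 4101 and 3748. Leaving out 1 sample left 3873 to 3986 genes higher and 2312 to 2430 lower, and the lone sample was then assumed to vary like the other groups. Adding the replicate block gave 4859 higher and 3097 lower and took the call from *Abcc3* among the named genes. Of 300 genes followed singly, 253 were called and 210 of them kept their call and direction under every alternative that tested them. Without 1 sample, 34 lost their call in at least 1 fit, at adjusted p-values of limma of up to 0.236.

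Of genes whose sign turned, *Hspa8* and *Npm1* alone were called, and became -0.03 and -0.02 after upper-quartile scaling. The others had not passed. *Cdkn1b* became -0.04 with quantile normalization and -0.02 with upper-quartile scaling, and *Etv5* became -0.28 and -0.3. With upper-quartile scaling *Clu* became -0.14 and *Cxcl5* -0.29. With 1 sample left out, *Etv5* ran from -0.3 to 0.48, *Krt20* from -0.57 to 1.6, *Igf2* from -0.07 to 0.41, *Nqo1* from -0.62 to 0.05, *Adgre1* from -1.13 to 0.0, *Cxcl5* from -0.03 to 0.29 and *Mybl2* from -0.19 to 0.99. Depth limits genes of few reads, and 2 samples a side limit every p-value.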
